A study of Mus musculus with 12 samples.

Results

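Voltage-gated ion channels turn changes in membrane potential into ion currents and so set how a neuron fires. Sodium channels carry the upstroke of the action potential, potassium channels end it and hold the cell near rest, and calcium channels link depolarization to transmitter release and gene expression. In the embryonic cortex these genes are switched on as newborn neurons migrate and begin to show electrical activity. The 33 genes described here were taken by symbol and cover pore subunits, accessory subunits and related channels. They comprise 4 sodium channel alpha subunits, 2 sodium channel beta subunits, 8 calcium channel alpha1 subunits, 6 calcium channel alpha2delta and beta subunits, 8 voltage-gated potassium channels, 3 calcium-activated potassium channels, 1 HCN channel and 1 inward rectifier. All 33 were found among the 51912 genes of the count files, and all 33 were among the 10678 that passed the filter on low counts.

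RNA was measured in cerebral cortex at embryonic day 15.5 from 6 Emx1-Cre Arid1a conditional mutants and 6 controls. Arid1a encodes a subunit of the BAF chromatin remodelling complex, and Emx1-Cre recombines in dorsal telencephalic progenitors and in the cells that arise from them, so interneurons, vessels and microglia in the same tissue keep the gene. The labels name the controls only as such and do not give their alleles. Mutants comprised 4 libraries of litter 2 (3 female, 1 male) and 2 of litter 1 (both female), and controls comprised 2 of litter 2 (1 female, 1 male) and 4 of litter 1 (1 female, 3 male). The labels give every library its own litter and sex entry but do not state how many animals it came from, so p-values measure the spread between these libraries.

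Gene counts per library were 643197 to 3525121 in mutants and 1476478 to 2815042 in controls. Arid1a itself ranged over 396 to 525 CPM (counts relative to library size after TMM scaling) in mutants and 464 to 575 CPM in controls, with an edgeR log2 fold change of -0.30 and an adjusted p of 0.277, and a gene total cannot show the loss of single exons. Emx1, a marker of the dorsal telencephalon, had 28.8 to 77.5 CPM in mutants and 24.0 to 77.5 CPM in controls. Neuron markers, of which 9 of 10 were tested, summed to 4332 to 5440 CPM in mutants and 5047 to 5827 CPM in controls, and 8 of the 9 had negative genotype log2 fold changes. Marker genes of striatum and ganglionic eminence summed to 112 to 1158 CPM in mutants and 72.1 to 987 CPM in controls, so libraries of both genotypes differed in how much of that RNA they held. The median sum was 410 CPM in mutants and 199 CPM in controls. The 5 of these markers that were tested all had positive genotype log2 fold changes (median 1.11, 0 called by edgeR, 0 at an unadjusted p under 0.05). All 17 interneuron markers tested had positive genotype log2 fold changes (median 0.33, 0 called by edgeR, 1 at an unadjusted p under 0.05), with sums of 1558 to 2514 CPM in mutants and 1384 to 3250 CPM in controls. No marker of choroid plexus, meninges or microglia passed the filter on low counts, but control 5, 1 of the 2 litter 2 controls, stood apart, with choroid plexus markers summing to 175.9 CPM and meninges markers to 37.6 CPM, against at most 14.2 and 11.2 CPM in the other 11 libraries. The part of any marker list in the channel results was not tested. Fewer cells of a type and less RNA per cell cannot be told apart in such bulk samples.

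Expression per kilobase of exon, averaged over all 12 libraries, spread the channel genes over a wide range. Kcnq3, a subunit of the M-type potassium channels that damp repetitive firing, was the highest at 111.6 CPM per kb, followed by Cacna2d1, an alpha2delta subunit that carries calcium channels to the surface, at 86.5 CPM per kb and Kcnq5, another M-type subunit, at 80.3 CPM per kb. That order was not the same in each group: in litter 1 controls Kcnq5 averaged 94.4, Cacna2d1 77.7 and Kcnq3 75.4 CPM per kb, and in litter 2 controls Kcnq5, at 88.8, was above Cacna2d1, at 85.1. Kcnq3 led in the other 3 combinations of genotype and litter. Cacna1c, an L-type calcium channel pore, stood at 45.2 CPM per kb. At the other end were Kcna2, a Shaker-type channel of axons, at 0.799 CPM per kb and Scn2b, a sodium channel beta subunit, at 1.86 CPM per kb. Among the sodium channel pores the order was Scn3a at 13.7, Scn8a at 11.5, Scn2a at 7.90 and Scn1a at 5.00 CPM per kb of exon, and it was the same per kb of genomic span. In litter 2 mutants, Scn3a and Scn8a lay close together at 13.3 and 12.2 CPM per kb, as did Scn8a and Scn2a in litter 1 controls at 11.8 and 11.7 CPM per kb. Scn3a, Scn2a and Scn1a are neighbours on chromosome 2 (GRCm38, 65457118 to 65567627, 65620771 to 65767447 and 66270778 to 66440840), while Scn8a is on chromosome 15. In other families the order depended on the length used: Cacna1h led the alpha1 subunits, Cacnb3 the accessory calcium subunits and Kcnn3 the calcium-activated potassium channels per kb of span, in place of Cacna1c, Cacna2d1 and Kcnn2 per kb of exon. The order over all channel genes changed as well. Per kb of span Cacnb3, at 6.27 CPM, was above Kcnq3, at 5.47, while Kcnq5 stood at 1.10. Kcnh1, at 0.0645, and Cacna1i, at 0.178, were below Kcna2, at 0.686, and Scn2b, at 0.706.

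**Figure D1:**
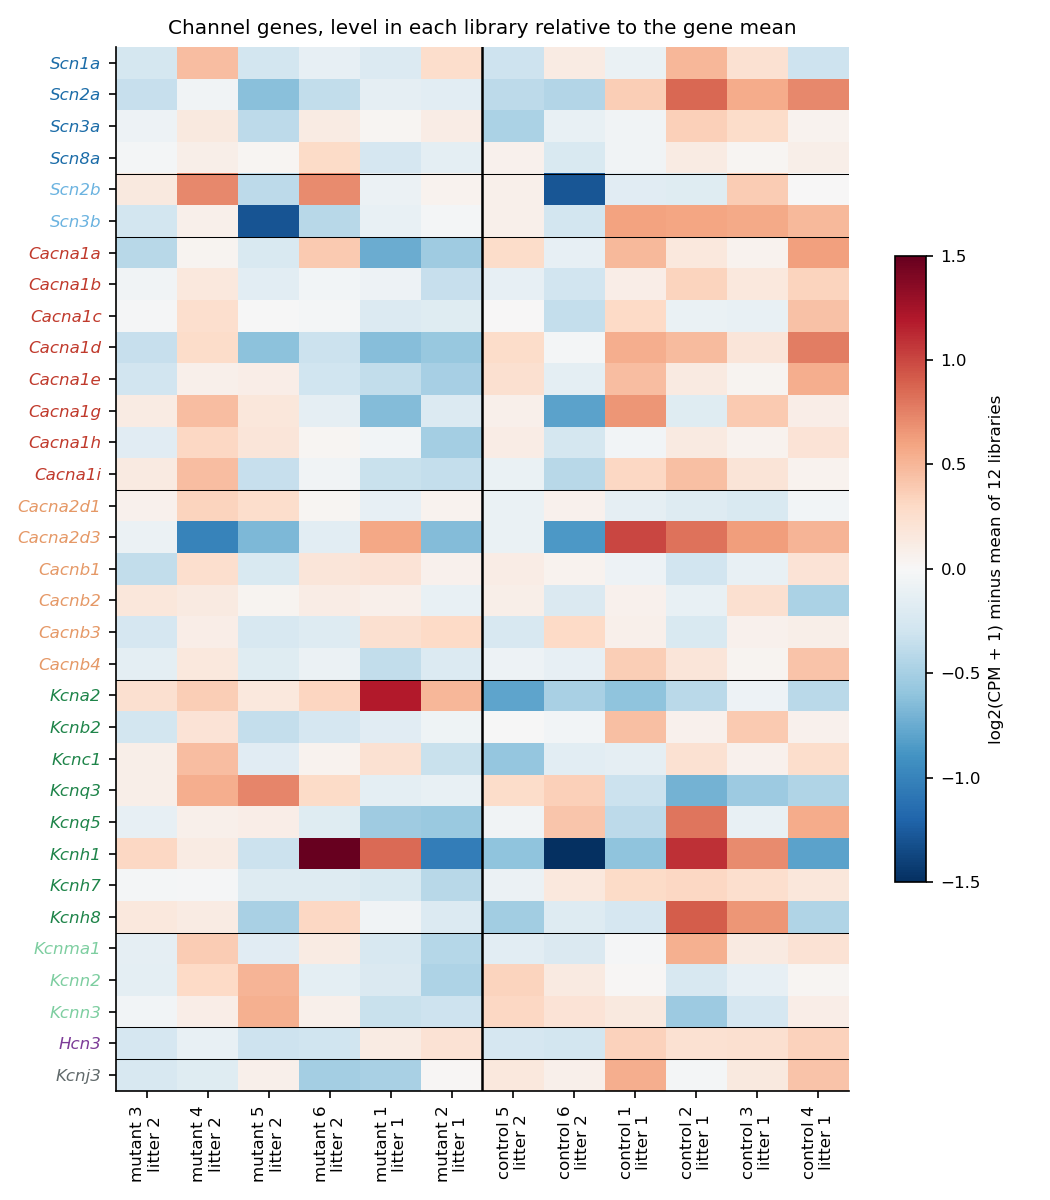
Level of each of the 33 channel genes (rows, grouped by family and separated by thin lines, label colour by family) in each of the 12 libraries (columns, mutants left of the heavy line, controls right, litter under each name), as log2(CPM + 1) minus the gene's mean over the 12 libraries. Scn2a is high only in the 4 litter 1 controls, Kcnq3 is high in the litter 2 libraries of both genotypes, and Kcna2 is high in all 6 mutants.

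None of the 33 channel genes was called between mutants and controls by the edgeR quasi-likelihood test with Benjamini-Hochberg adjustment over all genes tested, against 0.215% of all genes. DESeq2 and limma-voom also called 0. On simulated counts the edgeR fit called 31 of 192 genes changed 1.5-fold and 130 of 195 changed 2-fold. A gene that was not called may thus still differ. At an unadjusted p under 0.05 there were 6, 4 lower and 2 higher in mutants (DESeq2 7, limma-voom 6), which is 6 of 33 beside 8.78% of all genes. The median log2 fold change was 0.02 over the channel genes and -0.00 over all genes, and 18 of 33 were positive. That balance turned with several choices. The median was -0.07 with 9 of 33 positive without the sex term, -0.05 with 14 positive without the 2 shallowest libraries, -0.07 with 11 positive without mutant 4, -0.04 with 13 positive without control 5 and -0.08 with 12 positive without control 6. 1 channel gene, Kcna2, had no overlap between the genotypes, beside 1.26% of all genes.

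Kcna2 had 9.85, 11.4 and 21.3 CPM in mutants (lowest, median, highest) and 4.63, 6.16 and 8.29 CPM in controls. Every mutant lay above every control. The log2 fold change was 1.18 (SE 0.286, unadjusted p = 0.000638, adjusted p = 0.100 by edgeR), with 0.98 in litter 2 alone and 1.30 in litter 1 alone. It rests on 190 counts in all, 9 to 38 per library in mutants and 8 to 22 per library in controls. Without the sex term the adjusted p was 0.0268, and over the other alternatives it was not called.

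Kcnh7, an ERG-type potassium channel, had 482, 561 and 634 CPM in mutants and 605, 744 and 796 CPM in controls. The groups overlapped only through control 5, which lay below 2 mutants of its own litter. The log2 fold change was -0.34 (SE 0.112, adjusted p = 0.286 by edgeR), with -0.14 in litter 2 alone and -0.58 in litter 1 alone. Kcnj3, which encodes an inward rectifier subunit opened by G proteins, had 128, 159 and 194 CPM in mutants and 180, 204 and 268 CPM in controls. All 6 mutants lay below the control median. The fitted difference was -0.44 on the log2 scale (SE 0.147, adjusted p = 0.311 by edgeR), with -0.30 in litter 2 alone and -0.50 in litter 1 alone.

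Kcnh1, an EAG-type channel, had the largest genotype difference of the potassium channels and the least certain one. It had 7.45, 19.2 and 59.5 CPM in mutants and 5.06, 10.4 and 36.0 CPM in controls, and the groups overlapped over most of their range. The log2 fold change was 1.22 with a 95% interval of -0.66 to 3.11. Hhat, a gene on the opposite strand that overlaps 13449 of the 319386 bases of Kcnh1, had 434 counts beside 411 for Kcnh1. Whether the counting used strand is not given in the sources used here. These totals do not show how many reads fell in the overlap. Of the remaining voltage-gated potassium channels, Kcnb2 and Kcnc1, both delayed rectifiers, with the M-type subunits Kcnq3 and Kcnq5 and the ELK-type channel Kcnh8 had genotype log2 fold changes of -0.37 to 0.30.

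**Figure D2:**
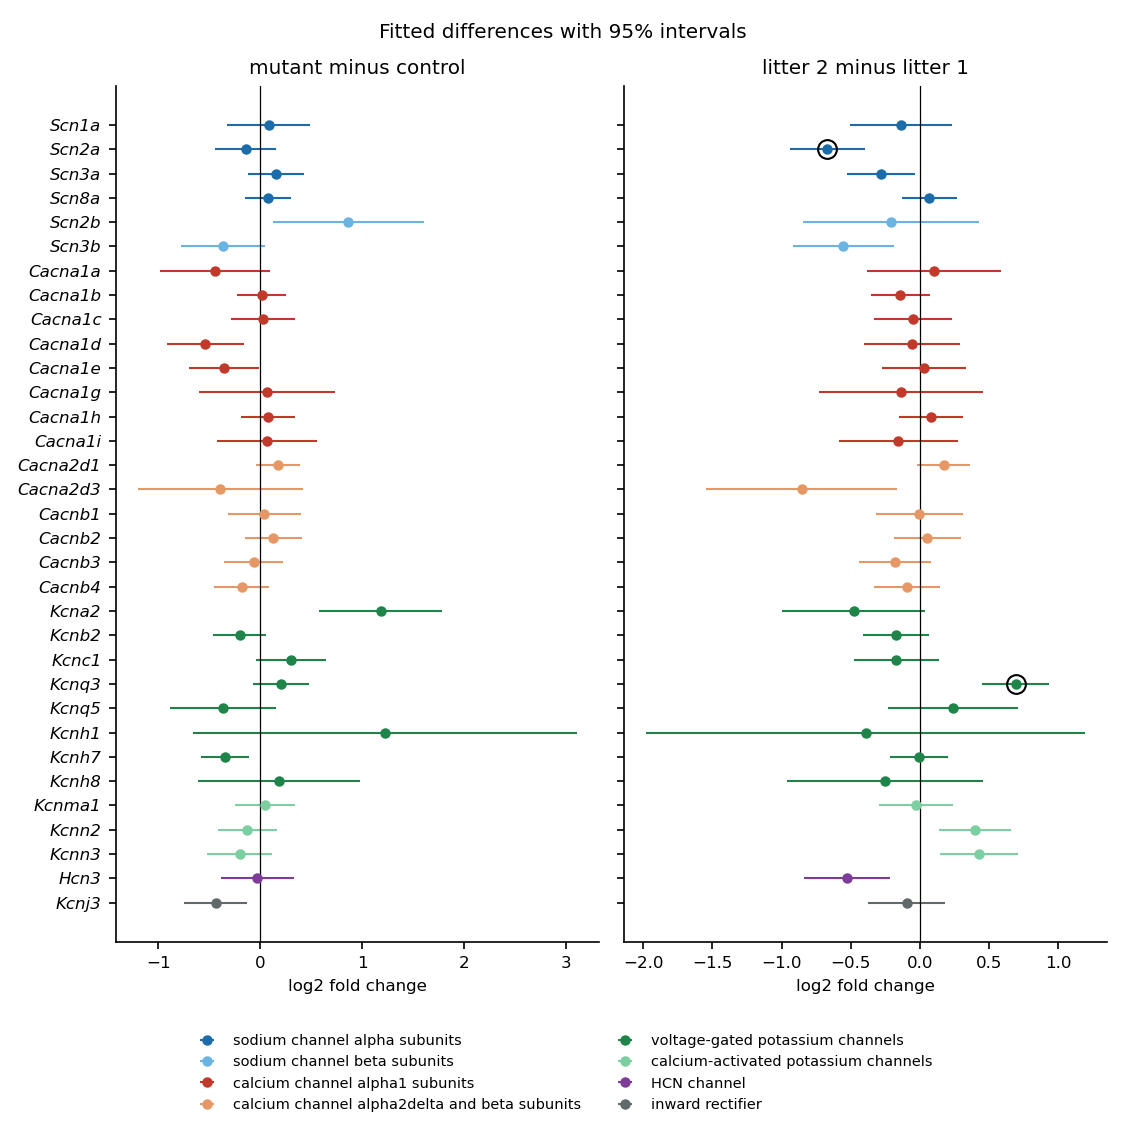
Fitted log2 fold change with its 95% interval for each of the 33 channel genes, mutant minus control on the left and litter 2 minus litter 1 on the right, coloured by family; black rings mark an adjusted p under 0.05. No gene is ringed for genotype, and Scn2a (-0.67) and Kcnq3 (0.69) are ringed for litter.

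Of the 8 calcium channel pores, Cacna1d, Cacna1e and Cacna1a had lower levels in mutants without passing the test, and the other 5 had fitted differences close to 0. Cacna1d, an L-type pore that opens at lower voltages than Cacna1c, had 125, 142 and 236 CPM in mutants and 190, 254 and 332 CPM in controls. Only mutant 4 reached into the control range. The log2 fold change was -0.54 (SE 0.174, adjusted p = 0.306 by edgeR), with -0.37 in litter 2 alone and -1.13 in litter 1 alone. Dcp1a on the opposite strand had 29.6% as many counts as Cacna1d itself. It overlaps 11921 of the 451517 bases of Cacna1d, and how many reads fell in the overlap is not known. Cacna1e, the R-type pore, had 394, 452 and 595 CPM in mutants and 501, 633 and 811 CPM in controls, and 2 mutants lay within the control range. The fitted difference was -0.36 on the log2 scale (SE 0.159, adjusted p = 0.533 by edgeR), with -0.14 in litter 2 alone and -0.75 in litter 1 alone.

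Cacna1a, the P/Q-type pore of many presynaptic terminals, had 91.2, 123 and 201 CPM in mutants and 141, 179 and 236 CPM in controls. The groups overlapped, and the log2 fold change was -0.44 with a 95% interval of -0.98 to 0.10. In litter 2 alone it was -0.14, and in litter 1 alone -0.996. The N-type pore Cacna1b, the L-type pore Cacna1c and the T-type pores Cacna1g, Cacna1h and Cacna1i had log2 fold changes of 0.02 to 0.07. Cacna1g had 30.4, 48.1 and 66.8 CPM in mutants and 27.1, 51.2 and 76.5 CPM in controls. Its 95% interval, -0.61 to 0.73, was the widest of the 5, and genotype differences within it were not excluded. Cacna1b had 161, 196 and 229 CPM in mutants and 167, 224 and 258 CPM in controls. Cacna1c had 819, 931 and 1129 CPM in mutants and 739, 917 and 1284 CPM in controls. Both pairs of groups overlapped over most of their range, as did Cacna1i at 14.9, 16.9 and 27.0 CPM in mutants and 14.3, 21.2 and 26.8 CPM in controls.

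Cacna2d3, an alpha2delta subunit, had the largest genotype difference of the accessory calcium subunits. It had 119, 184 and 360 CPM in mutants and 132, 358 and 484 CPM in controls, with the groups overlapping, and a log2 fold change of -0.39 (95% interval -1.20 to 0.42). Cacna2d1 had 977, 1111 and 1346 CPM in mutants and 913, 987 and 1115 CPM in controls, and 5 of 6 mutants lay above the control median (log2 fold change 0.17, adjusted p = 0.701 by edgeR). The beta subunits Cacnb1 to Cacnb4, which fold onto the pore from inside the cell, had log2 fold changes of -0.18 to 0.13. Cacnb4, at -0.18, had 216, 248 and 310 CPM in mutants and 256, 301 and 374 CPM in controls, with 1 of 6 mutants above the control median.

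Scn2b had 5.99, 8.83 and 14.1 CPM in mutants and 2.76, 7.66 and 10.9 CPM in controls. The groups overlapped, and the log2 fold change of 0.86 (SE 0.353, adjusted p = 0.452 by edgeR) rests on 185 counts, with -0.07 in litter 1 alone. Scn3b, another beta subunit, had 16.3, 35.9 and 43.7 CPM in mutants and 34.0, 59.8 and 63.1 CPM in controls. The 4 litter 1 controls, at 58.2 to 63.1 CPM, lay above every other library. The sodium channel pores had genotype log2 fold changes of -0.15 (Scn2a) to 0.15 (Scn3a), and Scn3a, the pore best known from embryonic brain, had 128, 178 and 188 CPM in mutants and 121, 169 and 216 CPM in controls.

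The calcium-activated potassium channels and Hcn3 had genotype log2 fold changes of -0.20 to 0.05. Kcnn2, a small-conductance channel that slows firing, had 235, 293 and 463 CPM in mutants and 274, 330 and 411 CPM in controls. Kcnn3, of the same type, had 131, 167 and 239 CPM in mutants and 113, 180 and 205 CPM in controls. Mutants of both genes spanned nearly the whole control range. Kcnma1, the large-conductance channel opened by calcium and voltage together, had 225, 272 and 394 CPM in mutants and 260, 316 and 438 CPM in controls. Its groups overlapped as well. Hcn3, a channel opened by hyperpolarization, had 16.7, 18.4 and 24.5 CPM in mutants and 17.0, 24.8 and 26.9 CPM in controls, with no mutant above the control median, and its genotype log2 fold change with litter in the fit was -0.03.

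Between litters, Scn2a fell and Kcnq3 rose in litter 2 relative to litter 1, 2 of 33 channel genes called beside 1.31% of all genes tested (edgeR; DESeq2 called 3 and limma-voom 2). At an unadjusted p under 0.05 there were 8, 5 lower and 3 higher, beside 15.4% of all genes. The median litter log2 fold change was -0.10 over the channel genes and -0.01 over all genes. It was -0.00 without control 5, -0.01 without control 6, -0.01 without control 1 and -0.19 without the 2 shallowest libraries. Marker lists of several cell types leaned to 1 side between litters. Litter log2 fold changes were negative for 14 of 17 interneuron markers (median -0.35, 0 called) and both red blood cell markers tested (median -1.57, 1 called). Both oligodendrocyte precursor markers tested (median -0.73), 7 of 9 radial glia markers and all 3 pericyte markers tested were negative too, with 0 called. Of 6 intermediate progenitor markers, 5 were positive, with 0 called. Neuron markers split into 4 positive and 5 negative, with 1 called lower in litter 2. Tbr1, in none of these lists, was higher in every litter 2 library (0.74, adjusted p = 0.00125 by edgeR). The part of these markers in the litter results was not tested. Kcnq3 and Hcn3 were the 2 channel genes whose litters did not overlap, beside 1.66% of all genes.

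Kcnq3 had 1674, 2295, 2599 and 1922 CPM in the litter 2 mutants and 1892 and 2014 CPM in the litter 2 controls. In litter 1 it had 1419 and 1447 CPM in mutants and 1259, 956, 1072 and 1148 CPM in controls. Every litter 2 library lay above every litter 1 library, in both genotypes. The litter log2 fold change was 0.69 (SE 0.115, adjusted p = 0.00631 by edgeR), and every alternative kept its sign. It did not pass the threshold in females only (0.58, adjusted p = 0.163 by edgeR) or without the 2 shallowest libraries (0.68, adjusted p = 0.0575 by edgeR).

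Scn2a, the sodium channel pore of early axon initial segments, had 74.5, 91.2, 61.2 and 73.4 CPM in the litter 2 mutants and 71.7 and 69.5 CPM in the litter 2 controls. In litter 1 it had 86.6 and 85.1 CPM in mutants and 123, 174, 140 and 157 CPM in controls. The 4 litter 1 controls stood above the other 8 libraries, so controls of the litters were apart while mutants of the litters overlapped. The litter log2 fold change was -0.67 (SE 0.129, adjusted p = 0.0139 by edgeR). It kept its sign but did not pass the threshold in females only (-0.49, adjusted p = 0.252 by edgeR), without control 5 (-0.49, adjusted p = 0.124 by edgeR) or without control 6 (-0.64, adjusted p = 0.0829 by edgeR).

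Hcn3 had 16.7 to 19.3 CPM in litter 2 mutants and 17.0 and 17.4 CPM in litter 2 controls, against 22.8 and 24.5 CPM in litter 1 mutants and 24.7 to 26.9 CPM in litter 1 controls. Every litter 2 library lay below every litter 1 library, and the log2 fold change of -0.53 (SE 0.149) did not pass (adjusted p = 0.0882 by edgeR). Kcnn2 and Kcnn3 had litter log2 fold changes of 0.40 and 0.43, and Scn3b, Cacna2d3 and Scn3a had -0.55, -0.85 and -0.28, all at adjusted p of 0.121 or more by edgeR.

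**Figure D3:**
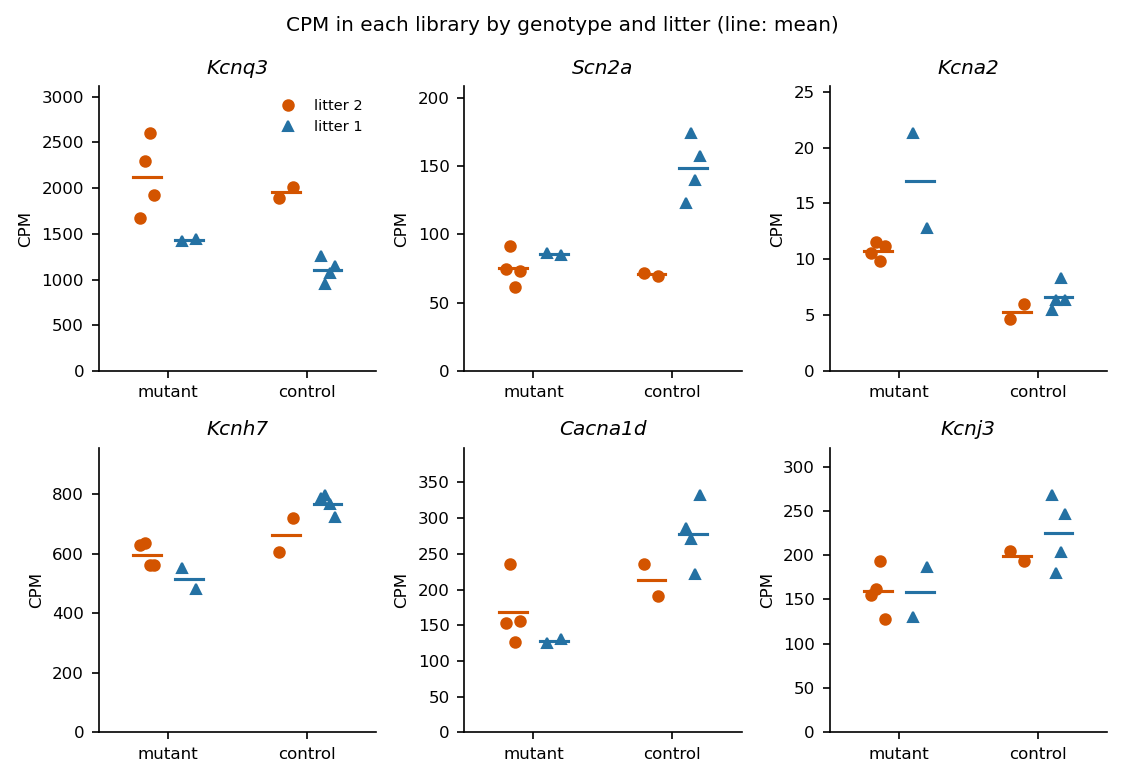
CPM in each library for 6 channel genes, mutants left and controls right in each panel, with litter 2 as orange circles and litter 1 as blue triangles; short lines are means and axes start at 0. Kcnq3 follows litter in both genotypes, Scn2a is high only in litter 1 controls, and Kcna2 is higher in all 6 mutants.

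The genotype difference was also taken in each litter by itself. In litter 2 alone the median log2 fold change over the 33 genes was 0.07, with 20 of 33 positive. In litter 1 alone it was -0.38, with 6 of 33 positive. These fits have no sex term, and in litter 1 both mutants were female and 3 of 4 controls male. The litter 1 mutants were also shallower, at 643197 and 924066 gene counts, than the litter 1 controls, at 1476478 to 2815042. Depth and genotype cannot be told apart in litter 1 alone. The difference between the litters, in a model that keeps sex, was tested gene by gene, and 0 channel genes were called, as for all genes (0%), by edgeR, with 0 by limma-voom and by DESeq2 as well. At an unadjusted p under 0.05 there were 11 of 33, all positive, beside 7.27% of all genes, with 7 by DESeq2 and 6 by limma-voom. The 11 became 4 without control 1, 5 without mutant 2, and 7 without mutant 1, control 4, control 6 or the 2 shallowest libraries. They became 15 without the sex term, 14 with no filter and 12 with DESeq2 size factors. Thinned to equal depth, 6 of 31 were at an unadjusted p under 0.05 by edgeR. The median was then 0.43 with 26 positive, beside 0.44 with 28 of 33 positive in the main fit. A positive value means that the mutant level, relative to controls, was higher in litter 2 than in litter 1.

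All 8 calcium channel alpha1 subunits had positive differences, from 0.40 for Cacna1h to 1.15 for Cacna1g. These differences come from the model that keeps sex, so they need not equal the gap between the values of each litter alone. Cacna1g, a T-type pore, had a log2 fold change of 0.49 in litter 2 alone and -0.70 in litter 1 alone (difference 1.15, SE 0.429, adjusted p = 0.590 by edgeR). Cacna1b had 0.18 in litter 2 alone and -0.45 in litter 1 alone (difference 0.52, SE 0.168, adjusted p = 0.529 by edgeR). Scn2a had 0.07 in litter 2 alone and -0.79 in litter 1 alone (difference 0.70, SE 0.210, adjusted p = 0.511 by edgeR). Kcnma1 and Cacnb4 had differences of 0.64 and 0.55, with SE of 0.206 and 0.195.

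Channel genes are long, and this difference moved with length over all genes. The channel genes had a median genomic span of 176.1 kb, and 24 of 33 spanned more than 100 kb. Over all genes tested the median difference between litters ran from -0.34 at spans up to 5 kb to 0.30 at spans over 400 kb. Channel genes over 100 kb had a median of 0.48 with 22 of 24 positive, beside 0.14 and 66.9% positive over the 2101 tested genes of that span.

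With the trend on span removed from the counts, the median over the channel genes was 0.25, with 24 of 33 positive and 4 at an unadjusted p under 0.05. Genes up to 10 kb were shifted by 0.201 and 0.176 (log2) in mutants 1 and 2, the only mutants of litter 1, and by 0.149 in control 6, against -0.136 to 0.0427 in the other 9 libraries. No marker gene was called for this difference by edgeR. All 6 intermediate progenitor markers (median -0.79, 2 at an unadjusted p under 0.05), 8 of 9 radial glia markers (median -0.54, 2 at an unadjusted p under 0.05) and all 5 endothelial markers tested (median -0.55) had negative values, while 7 of 9 neuron markers had positive ones. The part of gene length and of these markers in the channel result was not tested.

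**Figure D4:**
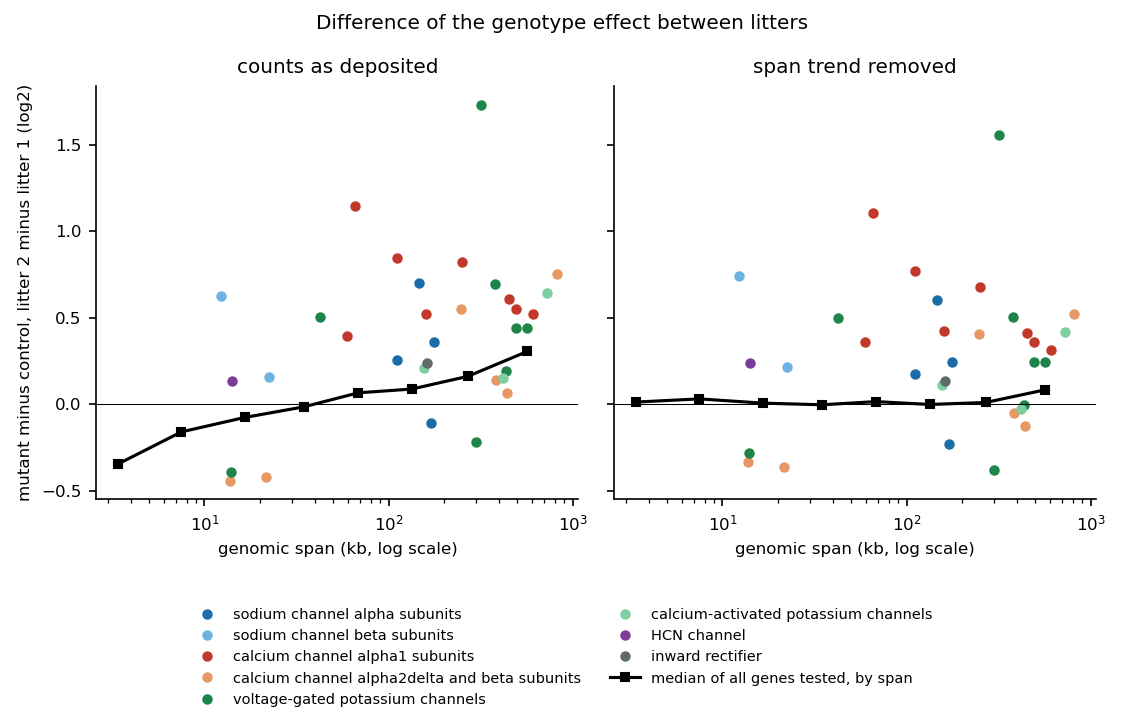
Difference of the genotype log2 fold change between litters (litter 2 minus litter 1, vertical) against genomic span in kb on a log scale for the 33 channel genes, coloured by family, with black squares for the median of all genes tested in bins of span. On the left, from the counts as deposited, the medians climb from -0.34 to 0.30; on the right, with the trend on span removed, they lie between -0.00 and 0.08 and 24 of 33 channel genes lie above 0.

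Of 94 further voltage-gated and related channel genes, 43 were tested and 0 were called between genotypes by edgeR, beside 0.215% of all genes. At an unadjusted p under 0.05 there were 4 of the 43, 3 lower and 1 higher, beside 8.78% of all genes. The smallest p-values were those of Kcng3, a modifier subunit of potassium channels (log2 fold change 1.09, adjusted p = 0.184), the leak channel Kcnk10 (-0.46, adjusted p = 0.185) and the calcium channel gamma-family gene Cacng7 (-0.32, adjusted p = 0.419). The value of Kcng3 rests on 217 counts in all, 5 to 51 per library in mutants and 8 to 17 per library in controls. Between litters 3 of the 43 were called by edgeR, beside 1.31% of all genes, and 21 had an unadjusted p under 0.05 (14 lower, 7 higher), beside 15.4% of all genes. Those called were Kcng1 higher in litter 2 (log2 fold change 1.00) and Kcnc2 and Kcnk1 lower (-0.68 and -1.22). Of these calls, that of Kcng1 held in 21 of 23 alternatives, Kcnc2 in 19 of 23 and Kcnk1 in 8 of 22. The difference of the genotype effect between litters was positive for 31 of the 43 (median 0.25), with 0 called by edgeR. At an unadjusted p under 0.05 there were 6, all positive, beside 7.27% of all genes.

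Among 18 channel-associated genes, all tested, 1 was called between genotypes by edgeR, lower in mutants, beside 0.215% of all genes. At an unadjusted p under 0.05, 1 was lower and 2 were higher, beside 8.78% of all genes. Kcnip3, a calcium-binding protein that binds A-type potassium channels and also acts as a transcriptional repressor, had 31.3, 34.5 and 35.1 CPM in mutants and 49.5, 63.0 and 74.0 CPM in controls. No mutant overlapped a control, as for 1.26% of all genes. The log2 fold change was -0.87 (SE 0.147, adjusted p = 0.0142 by edgeR), with -0.83 in litter 2 alone and -0.85 in litter 1 alone. Over 27 alternatives the log2 fold change stayed between -1.08 and -0.73. It passed the threshold in 20 of them, and not in either litter alone, without the 2 shallowest libraries, or without mutant 1, mutant 2, mutant 4 or control 1, where the highest adjusted p was 0.148 by edgeR. Fgf12, an intracellular partner of sodium channels, fell in litter 2 relative to litter 1 (-0.72, adjusted p = 0.0420 by edgeR, called in 11 of 23 alternatives). It was the 1 of the 18 called between litters, beside 1.31% of all genes. Cntnap2 and Sptbn4, which hold channels in place along axons, had genotype log2 fold changes of 0.77 and 0.45 (adjusted p = 0.443 and 0.479 by edgeR). Cntnap2 had 0.95 in litter 2 alone and 0.06 in litter 1 alone. Sptbn4 had 0.61 in litter 2 alone and -0.35 in litter 1 alone. The difference of the genotype effect between litters was positive for 13 of the 18 (median 0.21), with 0 called by edgeR. At an unadjusted p under 0.05 there were 3, all positive, beside 7.27% of all genes.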

How the data were processed

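Cortex RNA from 12 libraries was sequenced by ClickSeq after depletion of ribosomal RNA, per the labels' protocols. The submitters' processing notes name STAR (2.5.2a), UMI-tools (0.5.3) and cutadapt (1.13), HTSeq (0.6.1p1), bcl2fastq (2.17) and edgeR (3.20.9), with build mm10. No source used here gives the feature type or strand setting of the counting. The deposited files hold raw counts per gene, not normalized by the authors. Closing entries that name no gene, 20.7 to 31.6% of a file, were left out. Symbols and lengths come from GENCODE M21.

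Counts were filtered by filterByExpr (minimum count 10), scaled by TMM and, with edgeR 4.0.16 under R 4.3.3, fitted by robust glmQLFit and glmQLFTest with litter, sex and genotype, leaving 8 residual degrees of freedom. A further model added the interaction of litter and genotype. A gene was called at an adjusted p under 0.05 (Benjamini-Hochberg over all 10678 tested). SE is the log2 fold change divided by the square root of F. CPM uses TMM library sizes. Values for 1 litter come from fits to it alone, with genotype only. Other tests were limma-voom (limma 3.58.1) and DESeq2 1.42.0, and tables and plots used Python 3.11.15, pandas 2.3.3 and matplotlib 3.10.9. The fit was tested on simulated counts with genes changed between genotypes. It called 31 of 192 at 1.5-fold, 130 of 195 at 2-fold and 189 of 194 at 4-fold. Of unchanged genes it called 0, 6 and 13 in the same order. The simulated counts held no litter or sex differences. Members and lists were chosen with earlier results of these data known. The genes given in full are those called or at an unadjusted p under 0.05 in any of the 3 tests and those leading their family by level or genotype difference; replicate numbers follow accession order and pair nothing.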

Additional observations from a re-analysis of the deposited data

Results flagged for a closer look

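In the 66 groups of 6 libraries (33 channel genes by 2 genotypes), 2 held a library far from the other 5 by Dixon's criterion, while chance alone marks about 1 in 20 groups. Cacna1d had 236 CPM in mutant 4, the only male mutant, against 125 to 156 CPM in the other mutants. Kcna2 had 21.3 CPM in mutant 1, the shallowest library with 14 Kcna2 counts, against 9.85 to 12.8 CPM in the other mutants.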

How the results depend on the processing

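Between genotypes the 17 genes lower and 6 higher became 199 and 62 with no filter, 77 and 18 by DESeq2, 63 and 14 without the sex term, 118 and 23 without the litter and sex terms, 28 and 12 in litter 2 alone, 43 and 16 in litter 1 alone, and 0 and 0 without the 2 shallowest libraries. Genes lower also became 27 without robust fitting, 27 with a striatum marker score as covariate and 37 in females only, and genes higher became 2 without the litter term and 3 thinned to equal depth. The 0 channel genes called became 4 with no filter (Cacna1d, Cacna1e, Kcnh7, Kcnj3), 1 without the sex term (Kcna2), 1 without the litter and sex terms (Cacna1d) and 2 in litter 1 alone (Cacna1a, Cacna1d), and the 0.86 of Scn2b became -0.0651 in litter 1 alone. Between litters the 66 genes lower and 74 higher became 265 and 328 with no filter, 144 and 120 by DESeq2, 148 and 174 with the striatum score, 18 and 14 in females only, and 22 and 23 without the 2 shallowest libraries, with 35 lower when thinned. The 2 channel genes called became 5 with no filter, 4 with the striatum score, 0 in females only and 1 without the 2 shallowest libraries. For the interaction, 0 lower and 0 higher became 21 and 54 with no filter, 4 and 2 by DESeq2, 1 and 1 with the striatum score and 11 and 11 in females only, and channel genes became 2 with no filter and 1 in females only. With no filter the interaction median of all genes was 0.13, beside 0.51 for the channel genes. The causes were not tested.

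Leaving out 1 library at a time gave 5 to 45 genes lower and 0 to 10 higher between genotypes with 0 channel genes called, 11 to 99 lower and 16 to 113 higher between litters with 1 to 3 channel genes called (Scn2a lost without control 5 or control 6, Cacna2d3 gained without mutant 2), and 0 to 1 lower and 0 higher for the interaction with 0 channel genes called. No paired analysis was possible because replicate numbers only follow accession order; litter is a term of the fit. Kcna2, Scn2b and Kcnh1 had 190, 185 and 411 counts in all, with SE of 0.286, 0.353 and 0.83 for genotype, and 31 of 33 channel genes passed the filter once libraries were thinned to 643197 counts.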
